A study of Mus musculus with 10 samples.

Results

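Pericentral Wnt target genes are the genes that hepatocytes around the central vein of the liver lobule express under Wnt and R-spondin signals. The members here were Glul, Slc1a2, Rhbg, Lgr5, Axin2, Tbx3, Rnf43 and Znrf3, 8 of the 18193 genes that the platform annotation names alone on a probe set. A probe set is a group of short array probes read together as 1 value, and every probe set annotated to a member and to no other gene was taken, which gave 20 of 45101. The arrays measured total RNA of 10 livers of male C57BL/6 NHsd mice on the Affymetrix mouse whole-genome expression array. Rab5 siRNA livers (4 arrays) came from mice given lipid nanoparticles with siRNAs against the Rab5 genes, control siRNA livers (4 arrays) from mice given the same kind of particle with a control siRNA, and PBS livers (2 arrays) from mice given saline without particles. Mice received 1.5 mg/kg of siRNA by tail vein, and livers were collected on day 5. The control siRNA is scrambled according to the sample titles and targets luciferase according to the design text. The labels give no age. Whether each array stands for a separate mouse is not put in words, and the p-values cover the spread among arrays, which may be technical.

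Canonical Wnt signalling works through beta-catenin. Without a Wnt ligand a cytoplasmic complex built on Axin marks beta-catenin for destruction, and when Wnt binds Frizzled and LRP receptors that complex is held back, beta-catenin enters the nucleus and TCF/LEF factors turn on target genes. R-spondins, which bind LGR receptors, amplify the signal by removing RNF43 and ZNRF3, ligases that clear Frizzled from the cell surface. In liver, the endothelium of the central vein is a source of Wnt and R-spondin, so that the nearest hepatocytes carry glutamine synthetase and take up ammonium and glutamate from blood leaving the lobule. Rab5 GTPases direct traffic into early endosomes, compartments through which Wnt receptors also pass.

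The targeted genes check the labels. Rab5a read 6.28, 7.10, 6.91 and 7.16 on the log2 scale in Rab5 siRNA replicates 1 to 4, against 8.33, 8.81, 8.71 and 8.81 in control siRNA replicates 1 to 4, a difference of -1.81 (SE 0.176, limma adjusted p = 1.49e-05) that left 28.6% of the control signal. Rab5c differed by -1.99 (SE 0.111, adjusted p = 2.47e-07), leaving 25.1%, and the kept probe set of Rab5b, a dim one, by -0.24 (adjusted p = 0.207). Rab5 siRNA replicate 1 stood apart from the other arrays of its group on the first principal component, which held 57.3% of the variance, at 23.4 against 39.7 to 49.5, while control siRNA and PBS arrays lay between -32.6 and -20.4. The 3' minus 5' signal of the array's Gapdh controls overlapped between groups (2.29 to 2.67 in Rab5 siRNA livers, 2.19 to 2.86 in control siRNA livers), whereas that of Actb did not (2.59 to 2.75 in Rab5 siRNA livers, 2.84 to 3.23 in control siRNA livers); the part of this in the results was not tested. Hepatocyte markers identified the tissue: Alb averaged 14.11 in Rab5 siRNA livers and 14.06 in control siRNA livers.

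In Rab5 siRNA livers the glutamate transporter Slc1a2, the glutamine synthetase gene Glul and the repressor Tbx3 were lower than in control siRNA livers, with 19.5%, 44.7% and 57.7% of the control signal left on the brightest probe set of each gene. The other 5 members, Rnf43, Axin2, Lgr5, Rhbg and Znrf3, did not pass the test. Of the 20 member probe sets 15 passed the filter on low values, and 7 of these were called, 7 lower and 0 higher, at an adjusted p under 0.05. Of all 24281 probe sets tested, 21.1% were called, 8.96% lower and 12.2% higher. That excess of higher calls (2958 against 2175 lower) depended on the scaling, with 2598 higher and 2690 lower after median centring and 2692 and 2549 after quantile normalization. The difference was negative on 15 of 15 member probe sets, with a median of -0.63 (range -2.36 to -0.07) beside -0.01 over all probe sets tested. Among them, Slc1a2 probe set 1433094_at passed the filter only through control siRNA replicates 1 and 3 (4.56 and 4.34). The filter thus favoured its negative sign, which adds no support. By the brightest probe set of each gene, the median difference was -0.45 over the 8 members and 0.00 over all genes. The Rab5 siRNA and control siRNA arrays did not overlap, with Rab5 siRNA lower, on 8 of the 15, beside 10.8% of all probe sets. In whole liver RNA, fewer cells of a type and less RNA per cell cannot be told apart.

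**Figure D1:**
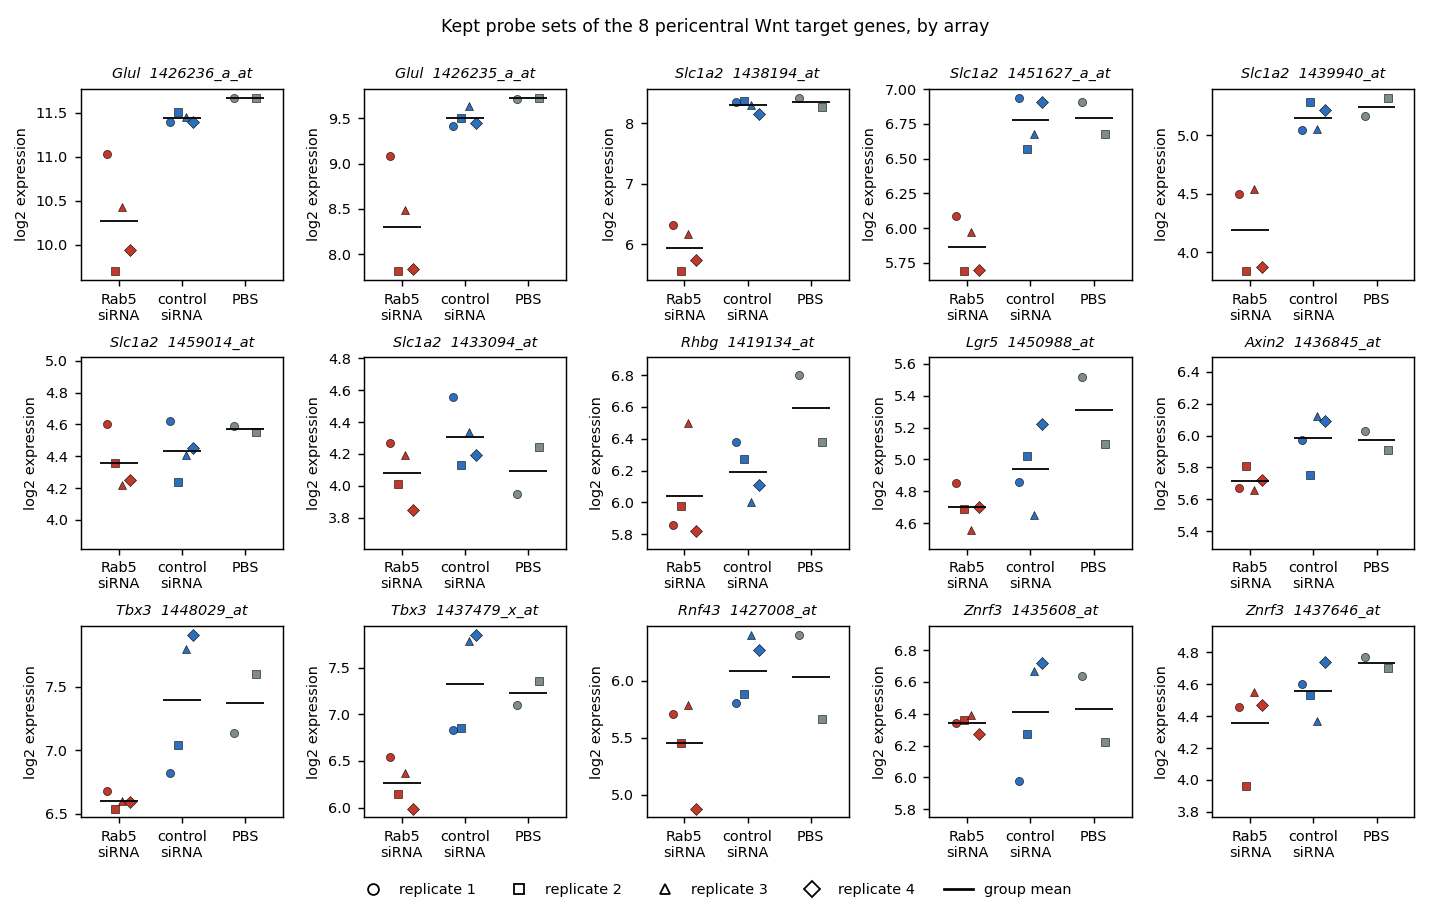
Log2 signal of each array for the 15 kept member probe sets (1 panel each, own y axis), with Rab5 siRNA, control siRNA and PBS arrays from left to right; marker shape gives the replicate number and the line the group mean. Slc1a2 probe set 1438194_at separates the groups most, with 5.55 to 6.31 in Rab5 siRNA livers and 8.16 to 8.38 in control siRNA livers, while Znrf3 overlaps.

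Glul encodes glutamine synthetase, which joins ammonium to glutamate and is restricted in liver to the hepatocytes next to the central vein. Slc1a2 encodes a high-affinity glutamate transporter of the same cells. The RefSeq windows around the start sites of these genes, 250 bases before to 50 after in assembly GRCm38.p6, are shown because these genes had the largest changes among the members; Glul lies at chr1:153899679-153899978 and Slc1a2 at chr2:102706188-102706487, both on the plus strand. Capitals mark a match to CTTTGAT, a core sequence bound by TCF/LEF factors, on either strand.
Glul: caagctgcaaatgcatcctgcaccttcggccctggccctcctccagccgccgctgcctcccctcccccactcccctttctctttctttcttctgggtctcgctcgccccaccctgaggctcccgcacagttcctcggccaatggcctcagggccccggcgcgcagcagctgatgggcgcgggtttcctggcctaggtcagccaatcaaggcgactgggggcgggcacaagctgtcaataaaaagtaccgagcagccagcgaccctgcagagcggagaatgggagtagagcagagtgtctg
Slc1a2: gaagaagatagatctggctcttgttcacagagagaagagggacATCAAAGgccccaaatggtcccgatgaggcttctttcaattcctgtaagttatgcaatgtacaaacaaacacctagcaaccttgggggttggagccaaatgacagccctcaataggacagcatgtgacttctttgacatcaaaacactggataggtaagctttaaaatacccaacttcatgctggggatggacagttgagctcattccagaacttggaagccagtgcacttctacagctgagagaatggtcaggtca
In the Slc1a2 window the match is on the minus strand, and its leftmost base as printed is at -207 from the start site. CTTTGAT occurred in 1 of the 5 windows that matched 4 members (Glul, Slc1a2, Axin2 and 2 windows of Rnf43), and in 3.73% of all 32851 windows of this length. The shorter CTTTG occurred in 1 of the 5, that of Slc1a2, and in 53.9% of all windows. Its leftmost bases as printed are at -205, inside the longer match, and at -77. An absent match says only that these letters are not in the window.

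Glul was measured by a pair of probe sets. Probe set 1426236_a_at read 11.03, 9.70, 10.43 and 9.94 in Rab5 siRNA replicates 1 to 4, 11.39, 11.51, 11.45 and 11.39 in control siRNA replicates 1 to 4, and 11.67 and 11.66 in PBS replicates 1 and 2. Every Rab5 siRNA array lay below every control siRNA array, and Rab5 siRNA replicate 1 was nearest to them. The spread was wider with Rab5 siRNA (10.27 ± 0.59, SD, n = 4) than with control siRNA (11.44 ± 0.0555, SD, n = 4), and the difference of -1.16 (SE 0.216, 95% interval -1.63 to -0.70) passed the test (adjusted p = 0.00183). The second probe set, 1426235_a_at, read 9.08, 7.81, 8.49 and 7.83 in Rab5 siRNA livers, 9.41, 9.50, 9.64 and 9.45 in control siRNA livers, and 9.71 and 9.73 in PBS livers. Its difference of -1.20 (SE 0.224, adjusted p = 0.00189) was within 0.04 of that of the first probe set, and the same arrays were high and low within the Rab5 siRNA group.

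Slc1a2 had the largest change among the 8 members. Probe set 1438194_at read 6.31, 5.55, 6.17 and 5.74 in Rab5 siRNA replicates 1 to 4, 8.36, 8.38, 8.31 and 8.16 in control siRNA replicates 1 to 4, and 8.43 and 8.27 in PBS livers. The groups were far apart, at 5.94 ± 0.356 in Rab5 siRNA livers and 8.30 ± 0.0992 in control siRNA livers (SD, n = 4 each), a difference of -2.36 (SE 0.151, 95% interval -2.69 to -2.04, adjusted p = 6.64e-07). As for Glul, Rab5 siRNA replicates 1 and 3 were higher than replicates 2 and 4. The other 2 probe sets that passed, 1451627_a_at and 1439940_at, differed by -0.91 (SE 0.126, adjusted p = 0.000199) and -0.96 (SE 0.159, adjusted p = 0.000809). In 1451627_a_at the Rab5 siRNA arrays lay between 5.69 and 6.09 and the control siRNA arrays between 6.57 and 6.94. In 1439940_at the Rab5 siRNA arrays lay between 3.84 and 4.54 and the control siRNA arrays between 5.04 and 5.28. The remaining 2, 1459014_at (difference -0.07, 95% interval -0.31 to 0.17) and 1433094_at (difference -0.23, 95% interval -0.51 to 0.05), were dim, with arrays between 3.85 and 4.62, overlapped between groups and did not pass (adjusted p = 0.708 and 0.242). One more probe set, annotated to both Slc1a2 and Gm13872, was left out.

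The differences of the Slc1a2 probe sets were unequal in size. In an exact permutation test over the 4 Rab5 siRNA and 4 control siRNA arrays (two-sided, 70 arrangements, smallest possible p = 0.0286), 13 pairs of probe sets of 1 gene were compared, and 8 passed after Benjamini-Hochberg adjustment (adjusted p = 0.0465 for each), all of them within Slc1a2. These arrangements leave out the replicate numbers; with the arrays paired by number only 16 are possible, the smallest possible exact p is 0.125 and 0 of the 13 pairs could or did pass. In the unpaired test probe set 1438194_at differed from each of the other 4, by -1.45 against 1451627_a_at for instance, and 1451627_a_at and 1439940_at each differed from the dim pair. The labels and files used here do not say which transcript each probe set reads, and probe sets near background have compressed differences.

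Rhbg encodes an ammonium transporter of the Rh family, found on pericentral hepatocytes. Probe set 1419134_at read 5.86, 5.98, 6.50 and 5.82 in Rab5 siRNA replicates 1 to 4, 6.38, 6.27, 6.00 and 6.11 in control siRNA replicates 1 to 4, and 6.80 and 6.38 in PBS livers. The groups overlapped, with Rab5 siRNA replicate 3 above every control siRNA array. The difference from control siRNA was -0.15 (95% interval -0.49 to 0.19, adjusted p = 0.545). An interval of this width does not show that Rhbg was unaffected.

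Lgr5 encodes a receptor for R-spondins and is itself a Wnt target. Probe set 1450988_at read 4.85, 4.69, 4.56 and 4.70 in Rab5 siRNA replicates 1 to 4, 4.86, 5.02, 4.65 and 5.22 in control siRNA replicates 1 to 4, and 5.52 and 5.10 in PBS livers. It overlapped between the siRNA groups, with a difference of -0.24 (95% interval -0.53 to 0.05, adjusted p = 0.245), and its arrays lay between 4.56 and 5.52, not far above the filter value of 4.33. The second probe set, 1444519_at, lay below the filter, between 3.81 and 4.20 in the 10 arrays.

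Axin2 encodes a scaffold of the destruction complex and is induced by Wnt as negative feedback. Probe set 1436845_at read 5.67, 5.81, 5.66 and 5.72 in Rab5 siRNA replicates 1 to 4, 5.97, 5.75, 6.12 and 6.09 in control siRNA replicates 1 to 4, and 6.03 and 5.91 in PBS livers. Only control siRNA replicate 2 reached into the range of the Rab5 siRNA arrays. The difference of -0.27 (SE 0.103, 95% interval -0.49 to -0.04) did not pass (adjusted p = 0.0858), and did pass without control siRNA replicate 2 (-0.35, adjusted p = 0.0307), after quantile normalization (adjusted p = 0.0406) and after median centring (adjusted p = 0.0405). A second probe set, 1421341_at, was below the filter, between 2.12 and 2.83.

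Rnf43 and Znrf3 encode the membrane ubiquitin ligases that remove Frizzled and are induced by Wnt as a brake on it. Rnf43 probe set 1427008_at read 5.71, 5.45, 5.79 and 4.88 in Rab5 siRNA replicates 1 to 4, 5.80, 5.88, 6.40 and 6.27 in control siRNA replicates 1 to 4, and 6.40 and 5.66 in PBS livers. The siRNA groups did not overlap, but control siRNA replicate 1 and Rab5 siRNA replicate 3 differed by little. The difference of -0.63 (SE 0.215, 95% interval -1.09 to -0.17) did not pass (adjusted p = 0.0532). It passed with the replicate number as a block (adjusted p = 0.033) and in 13 of 20 alternatives in all. Adjusted p ran between 0.0247 and 0.144 over the alternatives. Among the 13, the fits of only the groups compared, without PBS replicate 1 and without PBS replicate 2 gave the same result (adjusted p = 0.0421). Those fits are not separate support.

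Znrf3 probe set 1435608_at read 6.34, 6.36, 6.39 and 6.27 in Rab5 siRNA replicates 1 to 4, 5.98, 6.27, 6.67 and 6.72 in control siRNA replicates 1 to 4, and 6.64 and 6.22 in PBS livers. The Rab5 siRNA arrays sat inside the range of the control siRNA arrays. The difference of -0.07 (95% interval -0.41 to 0.26, adjusted p = 0.788) had no stable sign, being 0.01 without control siRNA replicate 3 and 0.03 without control siRNA replicate 4. The dim probe set 1437646_at differed by -0.20 (95% interval -0.48 to 0.09, adjusted p = 0.335).

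Tbx3 encodes a T-box transcriptional repressor that is a target of beta-catenin in liver. Probe set 1448029_at read 6.68, 6.54, 6.60 and 6.59 in Rab5 siRNA replicates 1 to 4, 6.82, 7.04, 7.80 and 7.91 in control siRNA replicates 1 to 4, and 7.14 and 7.60 in PBS livers. Here the Rab5 siRNA arrays were tight (6.60 ± 0.0586, SD, n = 4) and the control siRNA arrays wide (7.39 ± 0.542, SD, n = 4), with replicates 3 and 4 well above 1 and 2. The difference of -0.79 (SE 0.211, 95% interval -1.25 to -0.34) passed (adjusted p = 0.0166), and did not without control siRNA replicate 3 (-0.66, adjusted p = 0.0531). Probe set 1437479_x_at read 6.54, 6.15, 6.37 and 5.99 in Rab5 siRNA livers, 6.83, 6.85, 7.78 and 7.85 in control siRNA livers, and 7.10 and 7.36 in PBS livers. Its difference was -1.07 (SE 0.225, adjusted p = 0.00431), which left 47.7% of the control signal. The other 3 Tbx3 probe sets, 1439567_at, 1445757_at and 1444594_at, were below the filter, between 2.42 and 4.15. In a fit without the filter none of the 5 member probe sets below it passed in any comparison.

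**Figure D2:**
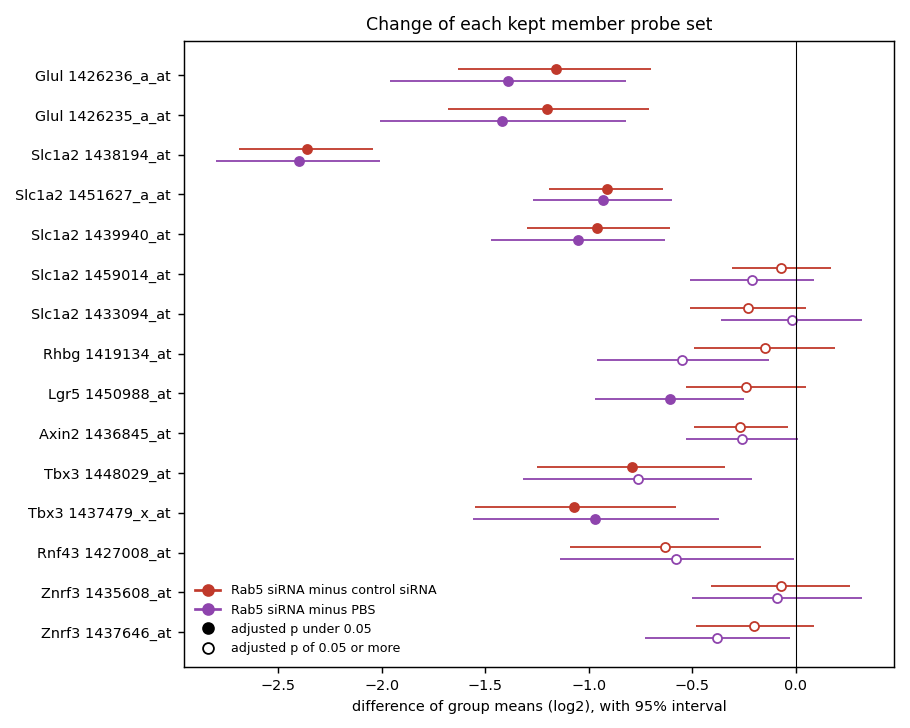
Difference of group means (log2, x axis) with 95% intervals for the 15 kept member probe sets (rows), as Rab5 siRNA minus control siRNA and as Rab5 siRNA minus PBS; filled points passed at an adjusted p under 0.05. Against control siRNA the 7 filled points belong to Glul, Slc1a2 and Tbx3 and run between -2.36 and -0.79.

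The sizes of change among members were compared in the same exact permutation test, on the within-array difference between the brightest probe sets of 2 members. Of 28 pairs, 0 passed after adjustment over the pairs (smallest adjusted p = 0.089), and 0 could pass with the arrays paired by number. The smallest possible unadjusted p of 0.0286 was reached by 9 pairs. Of these, 7 were Slc1a2 against each other member and the rest Tbx3 and Rnf43 against Znrf3. At that p, 9 pairs gave the adjusted p of 0.089, so none could pass unless more pairs reached it. The Slc1a2 pairs alone thus could not pass even when fully separated, and the test does not show changes of equal size. Slc1a2 against Glul differed by 1.20 on the log2 scale, Glul minus Slc1a2.

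The members also differed in which arrays of a group were high. For Glul and the called probe sets of Slc1a2, Rab5 siRNA replicates 1 and 3 were above replicates 2 and 4. For Tbx3, Rnf43 and the brighter probe set of Znrf3, control siRNA replicates 3 and 4 were above replicates 1 and 2. In the score of Kupffer cell and macrophage markers (mean log2 over 12 genes, 0 at the control siRNA mean), Rab5 siRNA replicates 1 to 4 were at 0.20, 0.73, 0.77 and 0.77, against -0.22 to 0.14 in control siRNA livers. Its part in the members' differences was not tested.

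**Figure D3:**
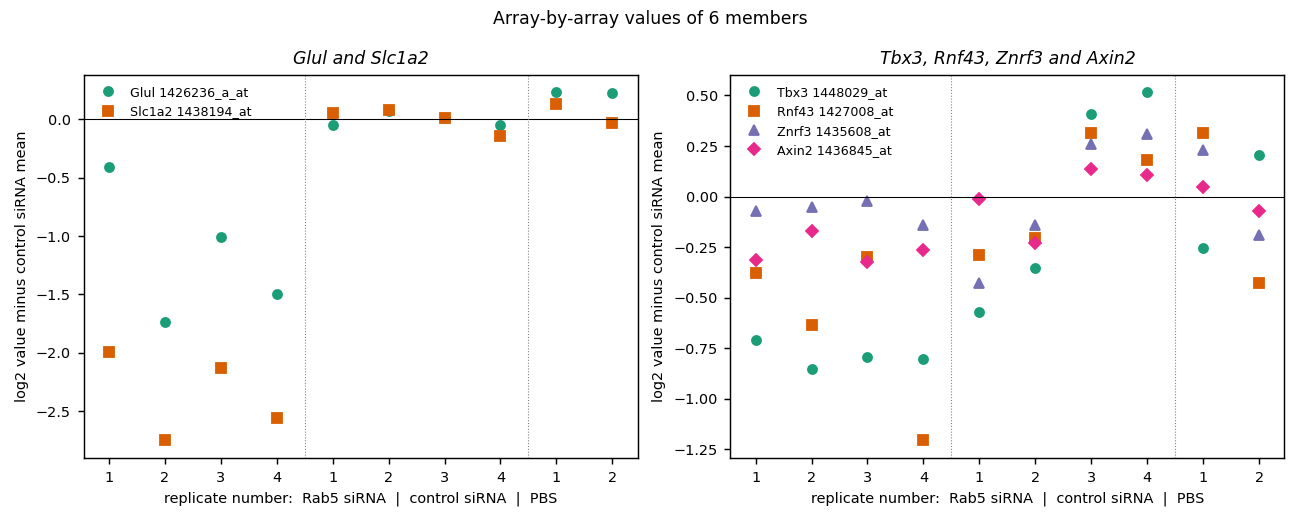
Log2 signal minus the control siRNA mean (y axis) in each array (x axis, Rab5 siRNA, control siRNA and PBS replicates from left to right) for the brightest probe sets of Glul and Slc1a2 (left panel) and of Tbx3, Rnf43, Znrf3 and Axin2 (right panel). Glul and Slc1a2 are higher in Rab5 siRNA replicates 1 and 3 than in 2 and 4, and Tbx3 is high in control siRNA replicates 3 and 4 (7.80 and 7.91).

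The control siRNA against PBS comparison asks what the particle and a non-targeting siRNA did on their own. By limma at an adjusted p under 0.05, 0 of 15 member probe sets and 0 of all 24281 were called, a share of 0%. At an unadjusted p under 0.05 there was 1 member probe set, that of Lgr5 (-0.37, 95% interval -0.73 to -0.01), beside 4.39% of all probe sets. The array-weighted fit called 0 member probe sets and 7 of all. Both Glul probe sets lay lower in every control siRNA array than in both PBS arrays, by -0.23 and -0.22, beside 6.59% of all probe sets that were lower without overlap. The PBS group has 2 arrays, which limits what this comparison can detect.

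In Rab5 siRNA livers against PBS livers, 7 of the 15 member probe sets were called, again 7 lower and 0 higher, beside 15.4% of all probe sets called and 7.04% called lower and 8.39% higher. They were both of Glul, 3 of Slc1a2, 1 of Tbx3 and that of Lgr5. On 10 of the 15 the Rab5 siRNA arrays lay below both PBS arrays, beside 17.7% of all. This comparison shares its Rab5 siRNA arrays with the one against control siRNA, so the sets of calls are not independent. Slc1a2 probe set 1438194_at differed by -2.40 (adjusted p = 2.79e-06) and Glul probe set 1426236_a_at by -1.39 (adjusted p = 0.00283, and 0.0673 without the arrays numbered 2). Lgr5 probe set 1450988_at differed by -0.61 (SE 0.166, adjusted p = 0.024), and that call was lost without PBS replicate 1 (-0.40, adjusted p = 0.301), Rab5 siRNA replicate 2 (adjusted p = 0.0523) or replicate 3 (adjusted p = 0.0608). Tbx3 probe set 1437479_x_at differed by -0.97 (adjusted p = 0.0308), a call lost when any of PBS replicates 1 and 2 and Rab5 siRNA replicates 2, 3 and 4 was left out (adjusted p between 0.052 and 0.212). Rhbg differed by -0.55 (adjusted p = 0.0749).

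The rest of the Wnt pathway was read from lists, a gene standing by its brightest kept probe set; of all 12855 such genes 22.5% were called with Rab5 siRNA against control siRNA, 9.16% lower and 13.3% higher. Among 12 measured Wnt target genes outside the members, 5 rose and 2 fell, with a median difference of -0.04 beside 0.00 over all genes. Ccnd1, the cyclin of the early cell cycle, rose to 9.99 ± 0.185 in Rab5 siRNA livers, against 8.44 ± 0.162 in control siRNA livers (SD, n = 4 each), a difference of 1.55 (SE 0.126, adjusted p = 3.72e-06). Myc, a growth-promoting transcription factor, rose by 0.68 (adjusted p = 0.0221), a call lost without Rab5 siRNA replicate 2 or 3 or control siRNA replicate 1, 3 or 4 (adjusted p between 0.0541 and 0.0747). Notum, a secreted enzyme that inactivates Wnt ligands and a feedback target, fell to 6.51 ± 0.388 in Rab5 siRNA livers, against 7.34 ± 0.16 in control siRNA livers (SD, n = 4 each), a difference of -0.83 (SE 0.173, adjusted p = 0.00404). Sp5, a transcription factor induced by Wnt, differed by -0.67 (adjusted p = 0.00898, and 0.0932 without the arrays numbered 2). Against PBS livers Sp5 differed by -0.32 and was not called (adjusted p = 0.319). The others that rose were Lect2 (0.59), Cd44 (0.58) and Sox9 (0.45), named after their values were seen; the Sox9 and Cd44 calls were lost when single arrays were left out (adjusted p up to 0.0963). The count of 5 that rose was 2 without Rab5 siRNA replicate 2, Rab5 siRNA replicate 3 or control siRNA replicate 3, and 3 without control siRNA replicate 1 or 2.

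The ligand and receptor counts stand beside the 22.5% of all genes called, 9.16% lower and 13.3% higher. Of 26 ligand, R-spondin and secretion genes, 11 were below the filter. Of the 15 measured 0 rose and 1 fell, Wnt6 (-0.41, adjusted p = 0.0243). That call was lost without control siRNA replicate 1 or 4 (adjusted p = 0.06 and 0.067). Wnt6 averaged 4.20 in Rab5 siRNA livers, below the filter value, and 4.62 in control siRNA livers. The filter may thus have favoured its negative sign too. The gene for the Wnt carrier Wls differed by 0.35 (adjusted p = 0.0785). The ligands of central vein endothelium were chosen for mention after their values were seen. Wnt2 differed by 0.09 (SE 0.16), Wnt9b by 0.04 (SE 0.149) and Rspo3 by 0.18 (SE 0.105). None passed the test (adjusted p = 0.746, 0.893 and 0.253). Wnt9b averaged 4.30 in Rab5 siRNA livers and 4.26 in control siRNA livers, both below the filter value. Rspo3 averaged 5.29 and 5.11 in the same groups. These values do not show that the ligands were unchanged. Of 15 receptors 0 rose and 3 fell, with a median of -0.13. They were Fzd8, a Frizzled receptor (-0.61, adjusted p = 0.00149), Ryk, a tyrosine-kinase-like Wnt receptor (-0.43, adjusted p = 0.00315), and Lgr4, another R-spondin receptor (-0.47, adjusted p = 0.0369). The Lgr4 call was lost without Rab5 siRNA replicate 1 or 3 or control siRNA replicate 2, 3 or 4 (adjusted p between 0.0657 and 0.102).

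Of 17 destruction complex and transducer genes 1 rose and 0 fell, with a median of 0.14. The kinase gene Csnk1d rose by 0.40 (adjusted p = 0.00593, and 0.0664 without the arrays numbered 2), and Ctnnb1, the gene of beta-catenin, differed by 0.35 (adjusted p = 0.0841). With the replicate number as a block 3 of these genes rose, Ctnnb1 among them (adjusted p = 0.0206), and 5 rose without Rab5 siRNA replicate 1. Of 11 nuclear partners of beta-catenin 0 rose and 0 fell, with a median of 0.06. The corepressor gene Tle1 differed by -0.39 (adjusted p = 0.125, and 0.0186 with the block) and Ctnnbip1, a beta-catenin inhibitor, by 0.31 (adjusted p = 0.0614). Of 5 measured secreted inhibitors 0 rose and 1 fell, Notum, while Sfrp1 differed by -0.08 (adjusted p = 0.623).

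Other zonated genes give the setting of the members. Of 23 pericentral hepatocyte genes outside the members, 6 rose and 11 fell, with a median of -0.51. Oat, the ornithine aminotransferase of the glutamine-forming cells, fell to 7.05 ± 0.185 in Rab5 siRNA livers, against 10.09 ± 0.233 in control siRNA livers (SD, n = 4 each), a difference of -3.04 (adjusted p = 1.21e-07). The cytochrome genes Cyp2c37 and Cyp2c54 differed by -2.16 (adjusted p = 7.88e-06) and -1.97 (adjusted p = 3.54e-05), whereas the glutathione transferase gene Gstm3 rose by 2.30 (adjusted p = 2.59e-06). Gstm3 already lay 1.58 higher in control siRNA than in PBS livers, though that difference was not called (adjusted p = 0.104). Of 20 periportal genes, which mark the opposite side of the lobule, 3 rose and 12 fell, with a median of -0.65. They included G6pc, the gluconeogenic phosphatase (-2.49, adjusted p = 2.59e-06), the lipid carrier Mfsd2a (-2.36, adjusted p = 6.93e-05), Etnppl (-2.02, adjusted p = 7.21e-06) and the histidine ammonia lyase Hal (-1.89, adjusted p = 1.29e-06). Genes of both zones thus held more falls than rises, and a difference between the zones was not tested.

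Of 13 genes of ammonium and glutamine handling, 1 rose and 6 fell, with a median of -0.25. Besides Oat, Got1, an aspartate aminotransferase, differed by -1.62 (adjusted p = 3.54e-05) and Slc38a3, a glutamine transporter, by -0.89 (adjusted p = 0.000306). Slc1a4, a neutral amino acid transporter of the same family as Slc1a2, rose by 1.74 (adjusted p = 3.72e-06). Of 10 T-box and hepatocyte transcription factors 1 rose and 2 fell, with a median of -0.06. Cebpa, a hepatocyte differentiation factor, differed by -0.88 (adjusted p = 0.00118) and Foxa3 by 0.54 (adjusted p = 0.00727). The other that fell was Nr1h4 (-0.36, adjusted p = 0.049), a call lost in most alternatives (adjusted p up to 0.205).

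**Figure D4:**
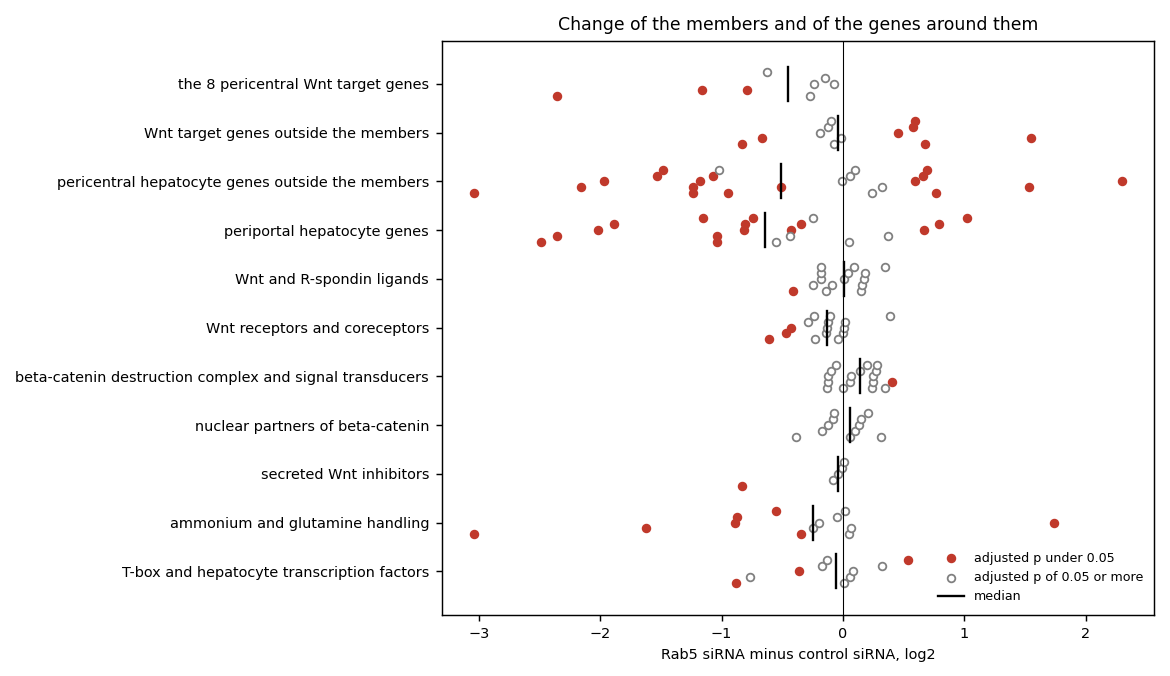
Difference of Rab5 siRNA minus control siRNA (log2, x axis) for the 8 members and every measured gene of the 10 pathway lists (rows); each point is a gene at its brightest kept probe set, filled where called, and the bar is the row's median. The members run between -2.36 and -0.07, and genes of both the pericentral and the periportal rows lie further left than Glul at -1.16.

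Markers of the cells that could change the members' share of the RNA were read likewise. Of 6 hepatocyte markers 1 rose, Ahsg (0.69, adjusted p = 0.000148), and 0 fell. Of 14 endothelial genes 2 rose and 3 fell, with a median of 0.04 (0 rose without Rab5 siRNA replicate 2 or control siRNA replicate 3, and 1 without any other single siRNA array): Thbd differed by 0.73 (adjusted p = 0.0378), Ptprb by -0.53 (adjusted p = 0.00171), Gpr182 by -0.50 (adjusted p = 0.015) and Cdh5 by 0.44 (adjusted p = 0.024). The score lay between -0.17 and 0.17 in Rab5 siRNA livers and between -0.06 and 0.08 in control siRNA livers. Of 12 Kupffer cell and macrophage genes 8 rose and 0 fell, with a median of 0.68, among them Cd68 (1.08, adjusted p = 2.66e-05) and Cd5l (1.01, adjusted p = 7.55e-05). That count was 4 without Rab5 siRNA replicate 3 and 5 without Rab5 siRNA replicate 2 or 4 or control siRNA replicate 1 or 3. Of 11 stellate cell genes 2 rose and 0 fell, Acta2 (0.69, adjusted p = 0.00458) and Ngfr (0.45, adjusted p = 0.0431), the second a call lost in most alternatives (adjusted p up to 0.106). That count was 4 without Rab5 siRNA replicate 1 and 5 with array weights, and 1 without Rab5 siRNA replicate 2, 3 or 4 or control siRNA replicate 1 or 3. Of 3 measured cholangiocyte genes 1 rose, Sox9, and 0 fell; 0 rose after median centring or without Rab5 siRNA replicate 1, 2 or 3 or control siRNA replicate 2 or 3 (adjusted p of Sox9 between 0.0552 and 0.0963). Of 7 lymphocyte and neutrophil genes 0 rose and 1 fell, Ighm (-1.38, adjusted p = 6.07e-05), with 1 that rose without Rab5 siRNA replicate 1. The part of these shifts in the members' differences was not tested.

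The genes whose pattern over the 10 arrays was most like each member were ranked by Pearson's r, which the difference between the groups largely sets, so r is a description. For Glul they were Igfals (r = 0.985), Tle2 (0.980) and Acacb (0.975), which differed by -1.04, -0.60 and -1.20 between Rab5 siRNA and control siRNA livers. For Slc1a2 the first was Rab5c (r = 0.989), a targeted gene, then Aspg (0.988) and Pank1 (0.987), which differed by -1.24 and -1.13. For Tbx3 the first was Iws1 (r = 0.983), for Lgr5 Sdr42e1 (0.984), for Rnf43 Nmnat3 (0.970), for Axin2 Wdr45b (0.951), for Znrf3 Bcar3 (0.903) and for Rhbg Dedd (0.876). After the group means were subtracted, Glul was most like Atf5 (r = 0.980), Tle2 (0.966) and Acacb (0.959), and Tbx3 most like Id2 (0.985), over the same 10 arrays.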

How the data were processed

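The deposited table held log2 expression values, which the authors made with Affymetrix Expression Console, RMA and Partek 6.6, per the submitters' processing notes, which give no order. RMA brings the arrays' distributions close together, so a shift of all transcripts would not be seen. The deposited distributions were not fully equal, with medians between 4.29 (PBS replicate 1) and 4.37 (control siRNA replicate 1). No detection calls were used; precision is limited by how few arrays there are. The platform annotation gave 1 symbol to 34945 probe sets, several to 932 and none to 9160, besides 64 array controls, left out. Probe sets above the table's median (4.33) in at least 2 arrays were kept, 24281 in all.

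With limma 3.58.1 (lmFit, eBayes; R 4.3.3), 1 mean per group, taken from the sample titles, was fitted over the 10 arrays, and p-values were adjusted by Benjamini-Hochberg over all kept probe sets. Every adjusted p of a gene or probe set is limma's unless a permutation test is named. SE are moderated. The fit was run on simulated data with independent noise in each array and no pairing, which does not check it for paired arrays. Alternatives were other filters and normalizations, 1 probe set per gene, array weights, an intensity trend, only the groups compared, a replicate block, and leaving arrays out.

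Replicate numbers come from the titles. Deviations from the group means of same-numbered Rab5 siRNA and control siRNA arrays correlated at 0.12 to 0.36 over the 4 pairs. Those of differently numbered arrays ran between -0.31 and 0.18, a range that overlaps. Each same-numbered value was above 0.1, so the numbers were taken to pair these arrays, which the overlap leaves uncertain. The main limma fit leaves the numbers out, and the replicate block is an alternative.

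Named were every member probe set, the Rab5 genes, array controls, up to 4 called genes per list with the largest change (or the largest 2 as values where fewer were called), and the genes most like each member, 3 per member ranked and a part of them printed. Members and lists were chosen with earlier results of these data known. Promoter windows and gene names came from RefSeq tables of GRCm38.p6.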

Additional observations from a re-analysis of the deposited data

Results flagged for a closer look

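In the dim Znrf3 probe set 1437646_at, Rab5 siRNA replicate 2 read 3.96, against 4.46 to 4.55 in the other Rab5 siRNA arrays. Its gap to the nearest array was 0.838 of the group's range, above Dixon's 95% limit for 4 values, the only such case among the 30 group values checked, fewer than the 1 in 20 that chance gives. This probe set lies close to the filter value of 4.33.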

How the results depend on the processing

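The Glul calls and the 3 Slc1a2 calls against control siRNA held under all alternatives run. Without the arrays numbered 2, adjusted p against PBS was 0.0937 for Glul probe set 1426235_a_at, 0.0673 for Glul 1426236_a_at, 0.0937 for Slc1a2 1439940_at, 0.0785 for Lgr5 and 0.293 for Tbx3 1437479_x_at. With 1 probe set per gene, the calls were 2993 for Rab5 siRNA against control siRNA (5133 probe sets as reported) with 4 of the 8 genes, and 2201 against PBS (3746 as reported) with 3 of the 8 genes. Without the arrays numbered 2 they were 2713 against control siRNA, and 1291 with 2 member probe sets against PBS. Control siRNA against PBS, 0 as reported, gave 2 by quantile normalization, 7 by array weights and 1 with the replicate block. Leaving out 1 array at a time gave 3827 to 5836 calls and 6 to 8 member probe sets against control siRNA, 1816 to 4398 and 5 to 8 for Rab5 siRNA against PBS, and 0 to 18 and 0 for control siRNA against PBS. Pairing the arrays by the replicate block called 6374 probe sets and 8 of 15 member probe sets (that of Rnf43 added) against control siRNA, and changed no other member call in that comparison. In the permutation tests of probe set pairs, pairing by number left 0 passed of 8. The difference of Znrf3 probe set 1435608_at ranged between -0.22 and 0.03 when 1 array was left out, with 0.01 and 0.03 without control siRNA replicate 3 or 4, and that of Sfrp1 0.00 without the arrays numbered 2. The alternatives for list genes and list counts and the pairing in the permutation tests were chosen after seeing the data. The cause was not tested. Low signal limits the dim probe sets.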
